A study of Mus musculus with 9 samples.

Results

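The genes described here make, store, take up and break down catecholamines, the transmitters of sympathetic nerves. They are Th, Ddc, Dbh, Pnmt, Slc18a2, Chga, Npy, Slc6a2, Maoa and Maob, 10 genes chosen by their role, and all 10 were found among the 18193 genes that have an array probe set of their own. Together they hold 19 probe sets, and each gene is described at its brightest one over the 9 arrays unless another is named. RNA of whole aortae (called thoracic in one label, taken from the arch to beyond the femoral branching in another) came from male mice that were partly backcrossed onto C57Bl/6J and carried either both working copies of BMAL (BMAL+/+, 5 arrays, F01, F04, F07, F09 and F10) or none (BMAL-/-, 4 arrays, F02, F03, F05 and F08). All mice had at least 2 weeks of 12 h light and 12 h dark, then at least 30 h of darkness, and were killed under anaesthesia at ZT14. The labels give no age and do not say how the gene was inactivated. The comparison asks which transcripts differ with the loss of BMAL1, an activator of the circadian clock.

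Noradrenaline is made from tyrosine in 3 steps, by tyrosine hydroxylase (Th), aromatic amino acid decarboxylase (Ddc) and dopamine beta-hydroxylase (Dbh), and Pnmt turns it into adrenaline, chiefly in the adrenal medulla. The vesicular transporter VMAT2 (Slc18a2) loads it into vesicles, where chromogranin A (Chga) and the co-released peptide neuropeptide Y (Npy) also lie. The noradrenaline transporter (Slc6a2) takes it back up, and the monoamine oxidases A and B (Maoa and Maob), enzymes of the outer mitochondrial membrane, break it down. The sympathetic axons of an artery run in its adventitia, and the cell bodies of those neurons lie in ganglia outside the wall.

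RefSeq promoter windows of assembly GRCm38.p6 cover 7 of the 10 genes (8 windows of 300 bases, since Ddc has more than 1 start). Those of Th, Slc18a2, Chga and Maoa are printed, and each holds the cAMP response element or its core, described below. Dbh, which also holds the core, and Ddc and Npy, which hold neither, are not printed. Dbh and Ddc had F09 and F03 as their 2 highest arrays, as the printed genes did. Npy did not: its 2 highest arrays were F09 and F07. The E-box CACGTG was searched for because BMAL1 acts through it. None of the 8 windows holds CACGTG, which reads the same on both strands and occurs in 7.15% of the 32817 windows of the table. The cAMP response element TGACGTCA, also its own reverse complement, lies in the windows of Th and Slc18a2 and in 1.79% of all windows. Its shorter core TGACG, or CGTCA on the other strand, lies in 5 of the 7 genes (Th, Slc18a2, Chga, Dbh and Maoa) and in 20.8% of all windows, and each full element holds it on both strands. The printed stretches run 5′ to 3′ from 250 bases before the annotated start to 10 bases after it, with these matches in capitals.
Th, chr7:142899986-142900245, minus strand, with the element from -45 to -38: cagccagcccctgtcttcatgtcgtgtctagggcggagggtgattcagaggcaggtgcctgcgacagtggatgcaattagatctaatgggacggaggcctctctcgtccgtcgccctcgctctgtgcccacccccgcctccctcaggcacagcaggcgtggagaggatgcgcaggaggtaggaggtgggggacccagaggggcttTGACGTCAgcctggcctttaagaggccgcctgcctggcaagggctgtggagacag
Slc18a2, chr19:59260628-59260887, plus strand, with the element from -4 to 4: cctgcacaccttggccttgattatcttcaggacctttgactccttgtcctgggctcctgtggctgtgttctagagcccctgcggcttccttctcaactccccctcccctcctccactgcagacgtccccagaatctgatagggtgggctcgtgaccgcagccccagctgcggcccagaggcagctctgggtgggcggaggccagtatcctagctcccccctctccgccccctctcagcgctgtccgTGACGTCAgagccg
Chga, chr12:102554691-102554950, plus strand, with the core from -44 to -40: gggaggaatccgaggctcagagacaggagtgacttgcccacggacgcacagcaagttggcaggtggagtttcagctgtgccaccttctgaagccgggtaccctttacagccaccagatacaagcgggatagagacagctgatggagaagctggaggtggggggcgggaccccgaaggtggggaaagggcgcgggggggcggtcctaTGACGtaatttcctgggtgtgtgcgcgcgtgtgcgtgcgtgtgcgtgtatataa
Maoa, chrX:16619448-16619707, plus strand, with the core from -209 to -205: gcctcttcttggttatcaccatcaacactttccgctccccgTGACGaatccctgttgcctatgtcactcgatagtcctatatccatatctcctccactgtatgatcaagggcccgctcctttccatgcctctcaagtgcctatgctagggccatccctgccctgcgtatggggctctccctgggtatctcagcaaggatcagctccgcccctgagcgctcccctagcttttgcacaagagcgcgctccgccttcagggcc
These matches describe the letters only. The windows of Pnmt, Maob and Slc6a2 were not analysed here.

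The arrays need a caution before any direction is read. The values are log2 levels, array medians lay between 3.13 and 3.24, and a gene is called near the floor where its mean over the 9 arrays is below 3.19, the median of all probe sets. At the clock genes, F04 (labelled BMAL+/+) read like the BMAL-/- arrays and F05 (labelled BMAL-/-) like the BMAL+/+ arrays: Npas2, which encodes a partner of BMAL1, was at 8.36 on F04, where the other BMAL+/+ arrays had 3.37 to 3.40, and at 3.40 on F05, where the other BMAL-/- arrays had 7.90 to 8.52. The source name of F01 gives BMAL-/-, while its title and strain give BMAL+/+, where it was kept. Npas2 read 3.37 on F01, like the levels of 3.37 to 3.40 on F07, F09 and F10. The differences of the 10 genes are therefore given for the 9 arrays as labelled and for the 7 without F04 and F05. Smooth muscle markers, which define the aorta, were all above the floor (8 of 8 genes, with list means of 9.76 to 11.08 over the arrays).

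No gene of catecholamine synthesis, storage or breakdown differed between BMAL-/- and BMAL+/+ aortae beyond the spread of the arrays. Of the 10, 9 had a lower and 1 (Pnmt) a higher mean in BMAL-/- as labelled, with a median difference of -0.57 on the log2 scale against 0.01 over all genes above the floor, of which 47.5% were lower. In limma 0 of the 10 had an adjusted p under 0.05 (the lowest was 0.625), where 0 of all 45037 probe sets (0%) did. At an unadjusted limma p under 0.05 the count was also 0 of 10, against 8.67% of all probe sets. That share includes probe sets near the floor, where none of the 10 genes lay. Among the 11181 genes above the floor, 131 were higher and 130 lower at this p. A plain one-way F-test gave 0 of the 10 genes at either level. The groups overlapped for all 10 genes; they did not overlap at 0.773% of probe sets. Exact permutation tests over the arrays gave p of at least 0.484 for each of the 10 genes tested, where the smallest p that 5 against 4 arrays allow is 0.00794.

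Without F04 and F05 the picture was the same in these respects. Of the 10 genes, 8 had a lower and 2 (Pnmt and Slc6a2) a higher mean in BMAL-/-, with a median difference of -0.30. In limma 0 passed (lowest adjusted p = 0.295), against 0.00888% of all probe sets, and 0 had an unadjusted limma p under 0.05, against 23.7%. Among the 11181 genes above the floor, 901 were higher and 743 lower at this unadjusted p. The groups overlapped again for all 10, whereas 17.5% of probe sets did not overlap. The lowest exact permutation p was 0.229, with 0.0286 the smallest that 4 against 3 arrays allow.

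**Figure D1:**
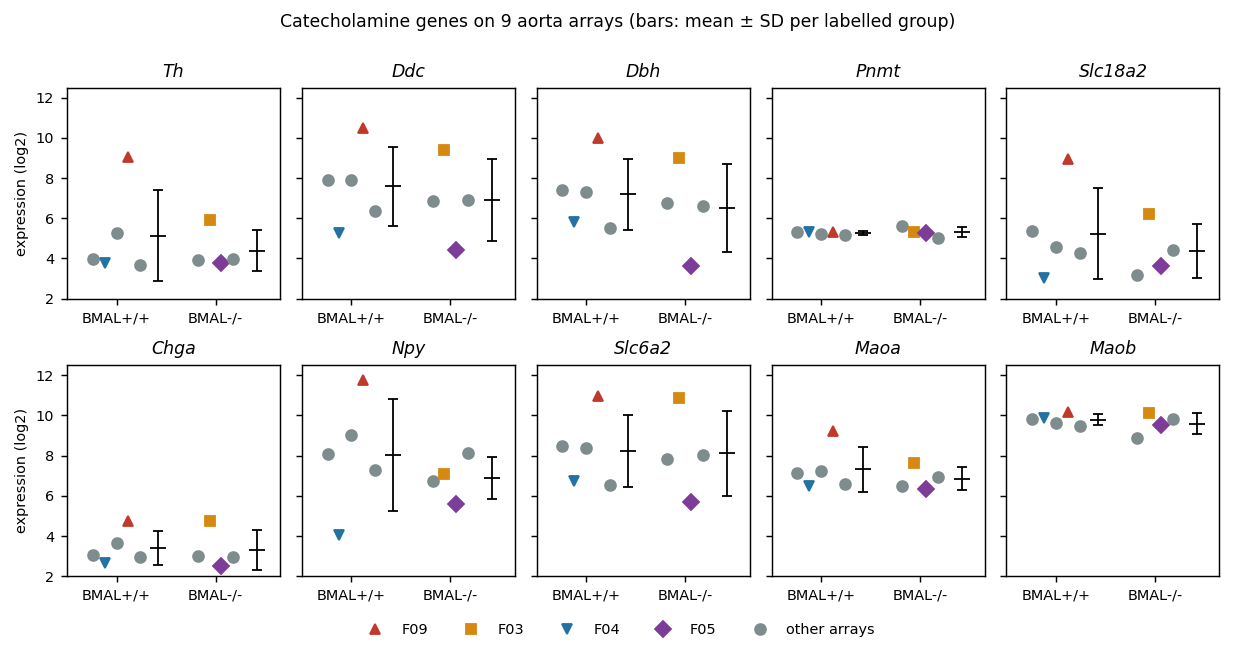
Expression (log2) of the 10 catecholamine genes on each array, by labelled genotype; each symbol is 1 array, and the bars give the mean ± SD of 5 BMAL+/+ and 4 BMAL-/- arrays. F09 (triangle) is the highest array for 8 genes and F03 (square) stands above the other BMAL-/- arrays for most of them, while Pnmt is flat.

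The same few arrays were the highest or the lowest for most of the 10 genes. F09, a BMAL+/+ array, was the highest for 8 of the 10 genes, and F09 and F03, a BMAL-/- array, were the 2 highest arrays for 8 of 10 (Th, Dbh, Ddc, Maoa, Maob, Slc6a2, Slc18a2 and Chga). This count was made after the values had been seen. Over all 11181 genes above the floor, F09 and F03 were the 2 highest arrays for 4.52%. The lowest array was F04 or F05 for 7 of the 10 genes, F05 for 5 of them, against 13.0% of the genes above the floor. In RNA of whole tissue, fewer cells of a type and less RNA per cell cannot be told apart.

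Among the enzymes of synthesis, Th, which sets the rate of the pathway, read 3.96, 3.76, 5.25, 9.06 and 3.68 on the BMAL+/+ arrays F01, F04, F07, F09 and F10. On the BMAL-/- arrays F02, F03, F05 and F08 it read 3.92, 5.91, 3.76 and 3.97. All arrays but F07, F09 and F03 thus lay within 3.68 to 3.97, and F09, F03 and F07 stood above them in that order. The level on F09 was 5.13 log2 units, or 34.9-fold, above the median of the other 8 arrays. The group difference was -0.75 ± 1.11 (SE) (limma adjusted p = 0.701) as labelled and -0.89 ± 1.35 (SE) in the 7 arrays, and the first was 0.23 without F09.

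Ddc, which makes dopamine from L-DOPA, read 7.92, 5.27, 7.89, 10.49 and 6.36 on F01, F04, F07, F09 and F10. On F02, F03, F05 and F08 it read 6.84, 9.41, 4.40 and 6.93. The spread covered 6.08 log2 units, a 67.8-fold range, and the arrays at both ends of it, F09 and F05, bear different labels. The difference of -0.69 ± 1.20 (SE) (limma adjusted p = 0.749) as labelled went to 0.04 without F09 and to 0.14 without F05. In the 7 arrays it was -0.44 ± 1.07 (SE). The other probe set of Ddc stayed between 2.02 and 2.08, near the floor, on every array.

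Dbh, which makes noradrenaline inside the vesicles, has 3 probe sets. On its brightest it read 7.40, 5.80, 7.29, 9.97 and 5.50 on F01, F04, F07, F09 and F10, and 6.76, 8.98, 3.63 and 6.62 on F02, F03, F05 and F08. F09 was the highest array on all 3, at 9.97, 10.00 and 7.08. F03 was the next highest on 2 of them; on the third, where it read 5.77, F07 was above it with 6.11. The group differences of the 3 probe sets were -0.69, -0.98 and -0.42 as labelled and -0.09, -1.34 and -0.57 in the 7 arrays, each within 1.5 times its SE, and that of the brightest was 0.26 without F05.

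Pnmt, the enzyme that marks adrenaline-making cells, followed none of this. Its brightest probe set read 5.34, 5.33, 5.20, 5.33 and 5.16 on F01, F04, F07, F09 and F10, and 5.60, 5.33, 5.29 and 5.03 on F02, F03, F05 and F08. The whole range was 0.57 log2 units, with F09 and F03 level. Both other probe sets lay near the floor, between 2.12 and 2.22 on every array. For 1 of them the difference was 0.03 as labelled and 0.04 in the 7 arrays. Its unadjusted limma p was 0.0448 and 0.0373 (adjusted 0.370 and 0.208), and shifts of this size near the floor are not resolved. The difference on the brightest was 0.04 ± 0.12 (SE), with a 95% interval of -0.24 to 0.32, the narrowest of the 10 genes, and it was -0.06 without F02. It was 0.06 ± 0.16 (SE) in the 7 arrays.

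Of the genes of storage and co-release, Slc18a2 read 5.35, 3.01, 4.56, 8.97 and 4.27 on F01, F04, F07, F09 and F10. On F02, F03, F05 and F08 it read 3.18, 6.22, 3.64 and 4.42. F09 again led, 4.62 log2 units (24.7-fold) above the median of the others, and F03 followed. The difference was -0.87 ± 1.15 (SE) as labelled (limma adjusted p = 0.669), and it was 0.07 without F09. In the 7 arrays it was -1.18 ± 1.28 (SE), and -0.12 without F09.

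Chga, the granule protein, lay just above the floor. It read 3.04, 2.66, 3.63, 4.76 and 2.98 on F01, F04, F07, F09 and F10, and 3.01, 4.77, 2.53 and 2.97 on F02, F03, F05 and F08. F09 and F03 were level here, and 6 of the other arrays lay at or below 3.04, within the range of the floor. The difference was -0.10 ± 0.54 (SE) as labelled and -0.02 ± 0.60 (SE) in the 7 arrays, and the first was 0.24 without F09.

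Npy, the peptide released with noradrenaline, had the widest range of the 10 genes, 7.67 log2 units. It read 8.06, 4.07, 9.02, 11.74 and 7.26 on F01, F04, F07, F09 and F10. On the BMAL-/- arrays F02, F03, F05 and F08 it read 6.75, 7.10, 5.58 and 8.12. F09 was the highest and F04 the lowest, and both are BMAL+/+ arrays. F03, which stood high for the genes of synthesis, lay in the middle for Npy. Npy also had the largest group difference, -1.14 ± 1.33 (SE) as labelled (limma adjusted p = 0.625) and -1.70 ± 1.04 (SE) in the 7 arrays (limma adjusted p = 0.295, 95% interval of -4.18 to 0.78). It was lower in BMAL-/- whichever single array was left out, but its size rested on single arrays: as labelled it was -0.22 without F09, -0.71 without F05 and -2.13 without F04.

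**Figure D2:**
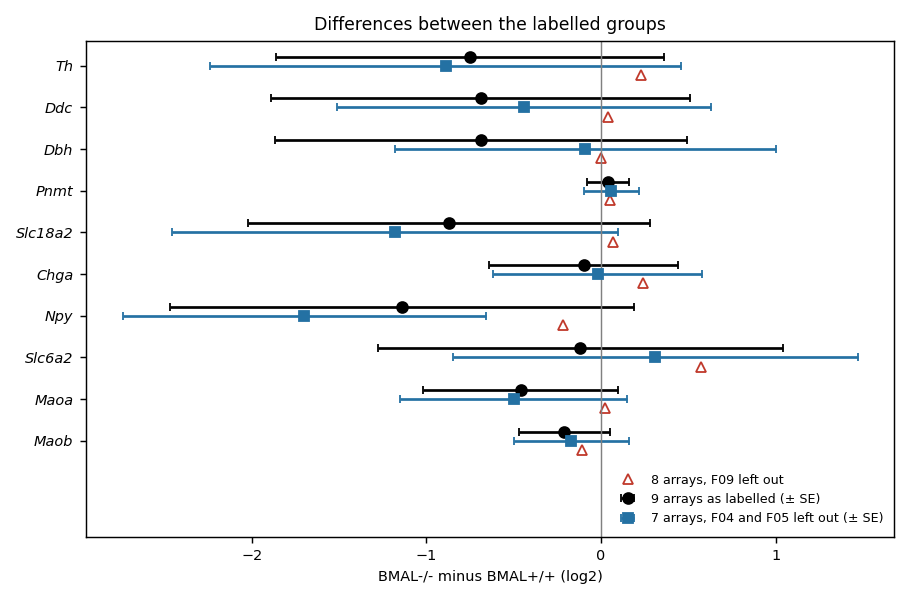
Difference between BMAL-/- and BMAL+/+ (log2) for each of the 10 genes, with limma's SE for the 9 arrays as labelled (circles) and for the 7 without F04 and F05 (squares), and without SE when F09 is left out of the 9 (open triangles). With F09 left out, Npy and Maob lie below 0, Dbh lies at 0.00 and the other 7 lie above 0.

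Slc6a2, the noradrenaline transporter, a defining gene of noradrenergic neurons, has 4 probe sets. On its brightest it read 8.49, 6.75, 8.38, 10.96 and 6.56 on F01, F04, F07, F09 and F10, and 7.85, 10.87, 5.71 and 8.01 on F02, F03, F05 and F08. On this probe set F09 and F03 were within 0.09 log2 units of each other and 3.03 and 2.94 above the median of the other 8 arrays each. F09 was also the highest on the other 3 probe sets, but not level with F03: it read 7.83 against 5.96 and 6.37 against 4.35 on those above the floor, and 3.38 against 3.03 on the one near it. The difference had no stable sign: it was -0.12 ± 1.16 (SE) as labelled, 0.31 ± 1.16 (SE) in the 7 arrays, 0.57 without F09 and 0.68 without F05.

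Maoa, the oxidase that prefers noradrenaline and serotonin, read 7.11, 6.48, 7.22, 9.21 and 6.57 on F01, F04, F07, F09 and F10. On F02, F03, F05 and F08 it read 6.50, 7.64, 6.36 and 6.94. The order of the 3 highest arrays, F09, F03 and F07, was that of Th, over a smaller range of 2.85 log2 units. Its second probe set kept the first 5 places of this order, with 8.82 on F09 and 7.06 on F03. The difference was -0.46 ± 0.56 (SE) (limma adjusted p = 0.640), with a 95% interval of -1.72 to 0.81, and it was 0.02 without F09. Without F04 and F05 it was -0.50 ± 0.65 (SE).

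Maob, the oxidase that many non-neuronal cells carry, read 9.83, 9.88, 9.64, 10.17 and 9.45 on F01, F04, F07, F09 and F10, and 8.88, 10.11, 9.53 and 9.82 on F02, F03, F05 and F08. F09 and F03 were the highest here too, but by only 0.44 and 0.38 over the median of the others. The difference was -0.21 ± 0.26 (SE) (limma adjusted p = 0.643, 95% interval of -0.79 to 0.37), and 0.03 without F02. Without F04 and F05 it was -0.17 ± 0.33 (SE).

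The direction of the group as a whole changed with some single arrays left out, but not with others. As labelled, the count of lower genes went from 9 of 10 to 3 of 10 without F09 and to 5 of 10 without F05, and it stayed at 8 or 9 without any other single array. In the 7 arrays it went from 8 to 3 without F09, to 5 without F02 and to 6 without F08. With both F03 and F09 left out it was 9 of 10 as labelled, with a median difference of -0.29, and 8 of 10 in the 7 arrays. With limma's array weights it was 9 of 10 as labelled, with a median difference of -1.12 in place of -0.57, and 5 of 10 in the 7 arrays, with one of 0.07. In none of these did a gene pass in limma.

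Markers of neurons, which are not part of the pathway, stood in nearly the same order. The list holds 10 structural and vesicle genes, 9 of which were measured, all above the floor. F09 was the highest array for 9 of 9, and F09 and F03 were the 2 highest for 8 of 9. The mean of the neuron list was 8.73 on F09, 6.83 on F03, 5.43 on F07, 5.09 on F01, 4.53 on F08, 4.50 on F02, 4.25 on F10, 3.42 on F05 and 3.39 on F04. The mean of the 10 catecholamine genes ran in the same order except that F04 (5.30) was above F05 (5.04), from 9.07 on F09 and 7.63 on F03. Neuron list means were 3.39 to 8.73 in BMAL+/+ and 3.42 to 6.83 in BMAL-/-. Uchl1, a ubiquitin hydrolase abundant in neurons, read 9.43 on F09 and 3.07 to 5.15 elsewhere, and Gap43, a protein of growing axons, read 9.13 on F09, 8.14 on F03 and 3.61 on F04. In limma 0 of 9 neuron markers passed in either comparison. The part of neuronal RNA in the levels of the catecholamine genes was not tested.

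**Figure D3:**
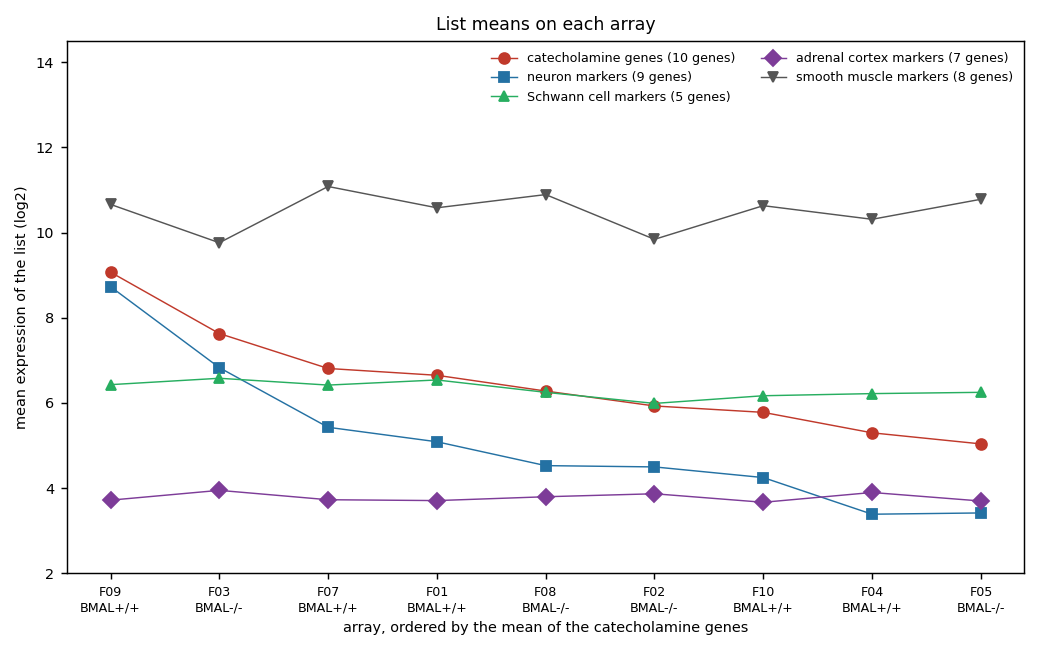
Mean expression (log2) of 5 gene lists on each array, with the arrays ordered by the mean of the 10 catecholamine genes. The neuron markers fall from 8.73 on F09 to 3.39 on F04 beside the catecholamine genes, while the adrenal cortex list stays between 3.67 and 3.95.

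The mean of the Schwann cell list (5 of 8 genes measured, 1 near the floor) shared part of this order over a narrow range. Its 4 highest arrays were those of the catecholamine genes. The list mean was 6.58 on F03, 6.54 on F01, 6.43 on F09 and 6.42 on F07, against 5.99 to 6.25 on the rest. The single genes differed, and F09 and F03 were the 2 highest arrays for only 1 of the 5. Sox10, a transcription factor that defines Schwann and other glial cells, read 5.37 on F03 and 5.27 on F09, its 2 highest arrays, and 4.51 to 4.83 elsewhere. Mbp, a myelin protein, and S100b, a glial calcium-binding protein, were highest on F03, at 9.56 and 6.87. On F09 Mbp read 8.21, its lowest level on any array, and S100b read 6.03. Pmp22, a protein of peripheral myelin, read 10.34 on F09, its highest array, and 8.75 on F03, its lowest. The part of Schwann cell RNA in the levels of the catecholamine genes was not tested. Of the 7 adrenal cortex markers, 5 were near the floor, among them Cyp11b1, Cyp21a1, Hsd3b1 and Star, and the list ranged from 3.67 to 3.95; Fdx1, which many tissues express, read 10.21 to 11.34. F09 had the highest mean of the adipocyte list, 12.65 against 11.09 to 12.40, and was the highest array for 4 of its 6 measured genes. Cidec, a lipid droplet gene, read 12.23 there. Lep, of the same list, went the other way, with 5.97 on F09, its lowest array, and 6.76 to 8.03 elsewhere. The macrophage list had means of 6.22 to 8.49 and the endothelial list 6.16 to 6.91, with F09 at 7.96 and 6.79. The striated muscle list ran from 6.57 on F01 to 11.25 on F07. No marker of these lists or of smooth muscle passed in limma in either comparison. Pecam1, an adhesion protein of endothelium, had the smallest p among the endothelial markers in both, with differences of -1.39 ± 0.42 (SE) as labelled and -1.94 ± 0.31 (SE) in the 7 arrays (limma adjusted p = 0.370 and 0.208). It read 6.76 to 8.06 on the BMAL+/+ arrays and 5.14, 5.75, 7.19 and 6.17 on F02, F03, F05 and F08. Vwf, an endothelial clotting factor carrier, differed by -0.07 and -0.06. Cdh5 and Kdr, 2 of the 7 endothelial markers, went the other way in both comparisons, Cdh5 by 0.11 and 0.49 and Kdr by 0.54 and 0.98. Of the contractile genes of smooth muscle, Acta2 differed by -0.09 and -0.14, Myh11 by -0.66 and -1.13 and Smtn by -0.77 and -1.23. Myocd and Eln, 2 of the 8 smooth muscle markers, were higher in BMAL-/- in both comparisons. The macrophage genes differed by -0.44 and -0.56 (Adgre1), -0.77 and -1.42 (Cd163) and -0.43 and -0.84 (C1qb), and the fatty acid carrier Fabp4 of adipocytes by -0.03 and -0.09. The striated muscle genes Myh4, Myh6 and Myl7 ranged over 2.39 to 12.23, 8.64 to 12.82 and 2.36 to 10.95 on the 9 arrays. The part of these cells in the levels of the catecholamine genes was not tested.

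F09 and F03 were not alike in which genes were raised. Pnmt, Chga and Maob differed by at most 0.06 log2 units between them at their brightest probe sets. Slc6a2 differed by 0.09 on its brightest probe set, but was 1.87 and 2.02 higher on F09 on the other 2 above the floor. Th was 3.15, Slc18a2 2.75 and Npy 4.64 higher on F09. The neuron markers Stmn2 and Uchl1 had gaps of similar size: Stmn2, a regulator of axonal microtubules, was 4.19 higher on F09 and read 5.17 on F03, within the range of the remaining arrays, and Uchl1 was 4.28 higher. Syt1, the calcium sensor of synaptic vesicles, differed by only 0.43. These are 1 array of each genotype, so they carry no test, and the genes were named after their values were seen.

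**Figure D4:**
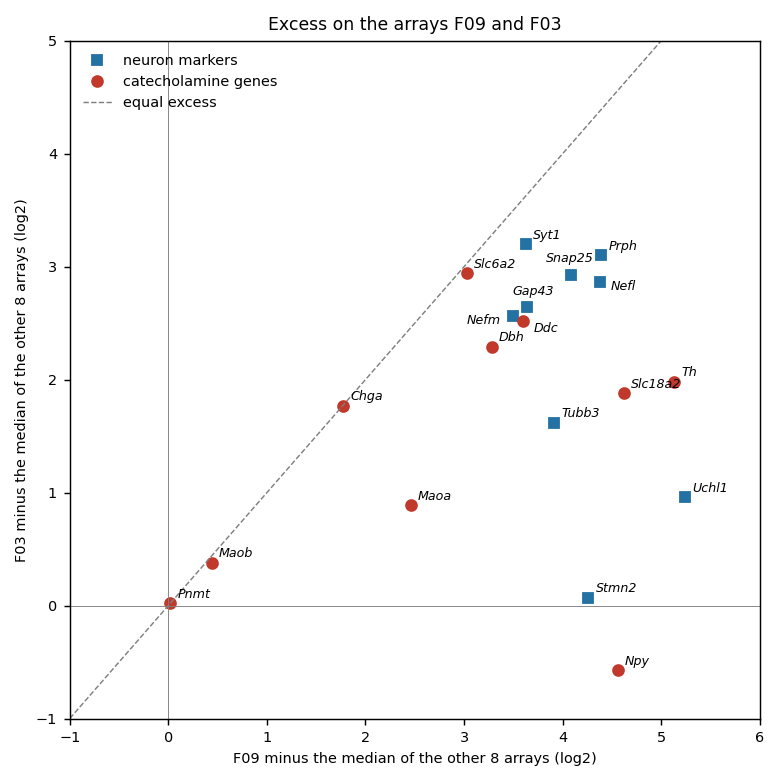
Level on F09 (horizontal) and on F03 (vertical) minus the median of the other 8 arrays, in log2 units, for the 10 catecholamine genes and 9 neuron markers; the dashed line marks equal excess. Slc6a2, Chga, Maob and Pnmt lie at or near the line, whereas Npy and Stmn2 lie far to the right with values near or below 0 for F03.

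The wider pathway was read from lists drawn up by function. For cofactor supply, other transport and other breakdown, 14 of 17 genes were measured and 0 passed in either comparison; 6 were higher and 8 lower as labelled, with a median of -0.04. Near the floor were 4 of the 14. In the 7 arrays, 901 of the 11181 genes above the floor were higher and 743 lower at an unadjusted limma p under 0.05. From the list, 3 of 14 genes reached that p, all 3 above the floor, against 23.7% of all probe sets. They were Aldh2, the aldehyde dehydrogenase that clears the products of the monoamine oxidases, Sult1a1, a phenol sulfotransferase, and Qdpr, which regenerates the cofactor of tyrosine hydroxylase. Aldh2 read 10.47, 8.78, 11.05, 11.71 and 11.27 on F01, F04, F07, F09 and F10, and 8.68, 8.53, 10.59 and 10.37 on F02, F03, F05 and F08. F02, F03 and F04 were the low arrays, and F05 and F08 lay close to F01. Its difference was -1.11 as labelled and -1.93 ± 0.51 (SE) in the 7 arrays (limma adjusted p = 0.384 and 0.208). Sult1a1 differed by -0.59 as labelled and -0.99 ± 0.27 (SE) in the 7 arrays, and Qdpr by 0.34 and 0.53 ± 0.17 (SE), both at a limma adjusted p of 0.208 in the 7 arrays.

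Some cofactor genes were high on the same 2 arrays as the members. Gch1, the first enzyme of tetrahydrobiopterin synthesis, read 6.53 on F09, 6.54 on F03 and 4.41 to 5.35 on the other arrays. Cyb561, the cytochrome that supplies electrons to the vesicle, read 9.01 on F09, 7.60 on F03 and 5.64 to 7.50 elsewhere. F09 and F03 were the 2 highest for 4 of the 14 genes. Gch1, Cyb561 and Aoc3 were picked after their values had been seen. Aoc3, an amine oxidase of smooth muscle and fat, read 10.96 on F09, its lowest array, and 11.35 to 11.98 on the rest. Akr1a1, an aldehyde reductase, stayed between 13.70 and 14.12. Slc18a1, the vesicular transporter VMAT1, was near the floor at 2.65 to 2.96.

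Of 10 genes of the secretory granule and of peptide processing, 9 were measured, 2 of them near the floor, and 0 passed. F09 and F03 were the 2 highest for 5 of 9. Chgb, the granin beside Chga, read 8.20 on F09, 8.26 on F03 and 4.15 to 6.57 on the other arrays. Scg2, another granin, read 7.38 and 7.39 on F09 and F03 and 4.06 to 5.37 elsewhere. Chgb and Scg2 were thus level on F09 and F03, as Chga was. Cpe, a carboxypeptidase of peptide processing that many cells express, was lower on F09, at 12.74, than on the other arrays, at 12.87 to 13.62. Pam, which amidates peptides such as NPY, read 3.74 to 4.31, and Vgf was near the floor, with 3.21 on F03, 3.13 on F09 and 2.51 to 2.61 elsewhere.

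Of 8 transcription factors of noradrenergic neurons, 6 were measured and 0 passed. Hand2, which sympathetic neurons need to become noradrenergic, read 7.79 on F09, 6.93 on F03, 5.41 on F07 and 2.98 to 4.13 elsewhere. Phox2a, an activator of Dbh, read 4.55 on F03, 3.54 on F09 and 2.55 to 2.78 on the other arrays, near the floor. Gata2 read 5.81 on F09 and 4.40 to 5.45 elsewhere, Insm1 was highest on F02 (5.28), and Gata3 stayed near the floor at 2.39 to 2.54.

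Of the 12 receptors for noradrenaline and NPY, 5 were measured, 4 of them near the floor (Adra1b, Adra2c, Npy2r and Npy5r), so the adrenergic side of the response was hardly covered. Npy1r, the NPY receptor of vascular smooth muscle, was the exception. It read 7.66, 6.21, 6.79, 6.52 and 6.05 on F01, F04, F07, F09 and F10, and 5.78, 5.33, 7.93 and 5.32 on F02, F03, F05 and F08. All BMAL-/- arrays but F05 lay below all BMAL+/+ arrays, and F09 was not raised. The difference was -0.55 as labelled and -1.28 ± 0.37 (SE) in the 7 arrays (limma adjusted p = 0.583 and 0.208), where the groups did not overlap, as for 17.5% of all probe sets. Npy2r differed by 0.08 as labelled and 0.11 in the 7 arrays, and Npy5r by 0.06 and 0.08, both near the floor, where such shifts are not resolved.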

How the data were processed

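Transcript levels of 9 aortae were read on Affymetrix mouse arrays, 1 per sample, which the design text calls biological replicates. The authors deposited log2 expression values. GCRMA and MAS5 appear in the submitters' processing notes, with no role or version, so the background and normalization settings are not given in the sources used here. These log2 values were used as deposited; they carry no present or absent calls, and dim probe sets pile up at a floor. Of 45101 probe sets, 64 controls were left out. The platform annotation, with symbols updated through gene identifiers to RefSeq (GRCm38.p6), names 1 gene for 34945 of the other 45037 and several for 932, and leaves 9160 unlisted.

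Genotype was the only term of a linear model in limma 3.58.1 (R 4.3.3; lmFit, eBayes with a mean-variance trend), two-sided, with Benjamini-Hochberg adjustment over all 45037 probe sets and calls at 0.05. Each difference subtracts the BMAL+/+ mean from that of BMAL-/-. Exact permutation tests (two-sided) used all 126 divisions of the arrays, or 35 for 7 arrays. Scripts were tested on simulated data. The genes and lists were chosen with earlier results of these data known. Named from each list were the 4 genes of smallest p in each comparison and the 2 brightest (1 of each for cell markers); others were named after their values were seen. Of 110 list genes, 18 had no probe set of their own. The number of arrays limits the precision. Alternatives were quantile normalization, centring, no trend, a robust trend, array weights, a brightness filter, a floor at the 20th percentile, the F-test of the design text, averaging the probe sets of a gene, F01 in BMAL-/- and each array left out. Leaving out both F03 and F09 was added after the data were seen. Plots used matplotlib 3.10.9.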

Additional observations from a re-analysis of the deposited data

Results flagged for a closer look

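Within a labelled group, 2 values stood far from the rest, out of 20 groups of arrays examined (10 genes in each genotype). Chance flags about 1 in 20 independent groups, but these share the same arrays, so that rate does not apply directly. Th read 5.91 on F03, and its gap to the next BMAL-/- array was 0.901 of that group's range. Maoa read 9.21 on F09, with a gap of 0.731 of the BMAL+/+ range. Th on F09, at 9.06, was not flagged, with a gap of 0.708 where the limit for BMAL+/+ was 0.71.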

How the results depend on the processing

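No catecholamine gene passed limma's threshold under any alternative that was run, in either comparison; the lowest adjusted p was 0.120 as labelled, with array weights, and 0.252 in the 7 arrays, without F08. Signs were less stable: of 200 values as labelled (10 genes under 20 alternatives), 16 changed sign, and of 170 in the 7 arrays (17 alternatives), 19 did. With array weights, differences as labelled grew to -2.82 for Dbh, -2.72 for Ddc, -2.62 for Npy, -1.93 for Slc6a2 and -0.80 for Chga (unadjusted limma p of 0.00999 to 0.0431, adjusted p of 0.120 to 0.172). As labelled, Pnmt went to 0.00 after centring and Slc6a2 to 0.02 with F01 in BMAL-/-. In the 7 arrays, Dbh went to 0.86, Ddc to 0.50 and Chga to 0.45 with array weights, Dbh to 0.01 after quantile normalization and Slc6a2 to -0.09 as the mean of its probe sets. With single arrays left out, the differences as labelled ran from -1.26 to 0.23 for Th, -1.52 to 0.26 for Dbh, -1.53 to 0.14 for Ddc, -0.06 to 0.13 for Pnmt, -0.72 to 0.02 for Maoa, -0.38 to 0.03 for Maob, -1.04 to 0.68 for Slc6a2, -1.49 to 0.07 for Slc18a2 and -0.58 to 0.24 for Chga. Npy kept its sign, from -2.13 to -0.22 as labelled and from -2.28 to -0.79 in the 7 arrays, where Slc18a2 did too, from -1.99 to -0.12. The others in the 7 arrays ran from -1.54 to 0.30 for Th, -0.85 to 0.72 for Dbh, -1.28 to 0.34 for Ddc, -0.08 to 0.21 for Pnmt, -0.82 to 0.06 for Maoa, -0.42 to 0.19 for Maob, -0.67 to 1.10 for Slc6a2 and -0.61 to 0.36 for Chga. With array weights in the 7 arrays, 4 genes of the cofactor and breakdown list, 2 receptors and 1 transcription factor passed in limma. Without weights 0 did, and the cause was not tested. The share of all probe sets that passed with array weights is not given here, in either comparison. The counts and p-values with weights are therefore not read as a result about these genes. No paired analysis was possible because the groups share no replicate numbers. Levels near the floor cannot show small differences.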
